A study of Bos taurus with 8 samples.

Results

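The enzymes that make, interconvert and conjugate oestradiol were followed in granulosa cells of atretic and plateau dominant follicles of the cow. The 5 genes sought were CYP19A1, HSD17B1, HSD17B4, HSD17B12 and SULT1E1, and members were all gene probes that carried 1 of these symbols in the annotation of the EmbryoGENE bovine array. Of 43794 gene probes, 8 met this rule. CYP19A1 had 3 probes, HSD17B1 had 1, HSD17B4 had 1 and SULT1E1 had 3, while no probe carried the symbol HSD17B12, which is therefore only named here.

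On each of the 8 arrays, spread over 2 slides, amplified RNA of 1 atretic follicle competed with that of 1 plateau follicle, each in its own dye. Atretic follicles (n = 4) were those classified by flow cytometry as regressing, with many cells of reduced DNA content. Plateau follicles (n = 4) were those classified as past rapid growth, with few dividing and few dying cells. All were dominant follicles over 9 mm from Holstein dairy cattle, taken from slaughterhouse ovaries of animals whose cycle stage was not known. The follicle wall was scraped for mural granulosa cells, and the RNA was amplified before labelling. Whether the follicles came from different cows is not stated in the labels, so p-values speak only for the spread among these samples.

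Granulosa cells line the follicle and convert androgens, supplied by the neighbouring theca cells, into oestrogens. Aromatase (CYP19A1) carries out this conversion, and 17-beta-hydroxysteroid dehydrogenases (HSD17B) then reduce oestrone to the potent oestradiol or oxidise it back. Sulphation inactivates oestradiol, and a fall in follicular oestrogen is a classical sign of atresia in the cow.

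The second slide repeated the first with the dyes exchanged, and arrays of equal Area number, the position on the slide, were averaged to 4 pairs of follicles. The follicles of a pair were hybridised together, and the labels give no other link between them. Differences are log2 ratios, atretic to plateau, with the SD over the pairs (n = 4), and levels are log2 intensities of each follicle after normalization. A probe's brightness also depends on its sequence, so levels of different probes are not compared as amounts of mRNA. The 95th percentile of 153 negative control spots lay at 7.03 to 7.19 in the 8 follicles and is called background. Probes whose log2 intensity averaged at least 7 were tested with limma (33523 probes), and each gene was read by its brightest probe (12943 genes). The threshold named by the study, a fold of 1.5 at an unadjusted p of 0.05, was passed by 1393 probes (4.16%), or 744 genes (5.75%), of which 367 were higher (2.84%) and 377 lower (2.91%) in atretic follicles. No probe passed an adjusted p of 0.05 in limma (0 of 33523), and 2524 probes (7.53%) had an unadjusted p under 0.05.

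Granulosa markers were well expressed, and 8 of 10 were above background in all 8 follicles. One plateau follicle stood apart from the other 7, namely that of pair 3. Its 8 collagen and stroma markers averaged a log2 intensity of 13.5, against 7.91 to 9.19 in the other follicles of both groups. In the same follicle INHA, the inhibin alpha subunit of granulosa cells, had a level of 11.50, against 13.97 to 15.97 in the other 7. Values without pair 3 are therefore given beside many of the results, a choice made after the data were seen for genes other than the 5 enzymes.

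Of the 4 enzymes with a probe, 0 passed the study's threshold, beside 5.75% of all tested genes, and SULT1E1 was too dim to be tested. The data instead showed wide differences from follicle to follicle in CYP19A1 and, among plateau follicles, in HSD17B1. By its brightest probe, aromatase mRNA spanned most of the scale of the array in both groups. HSD17B1 was narrowly spread in atretic follicles and widely spread in plateau follicles. HSD17B4 was nearly level in 7 of 8 follicles, and SULT1E1 stayed at background.

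**Figure D1:**
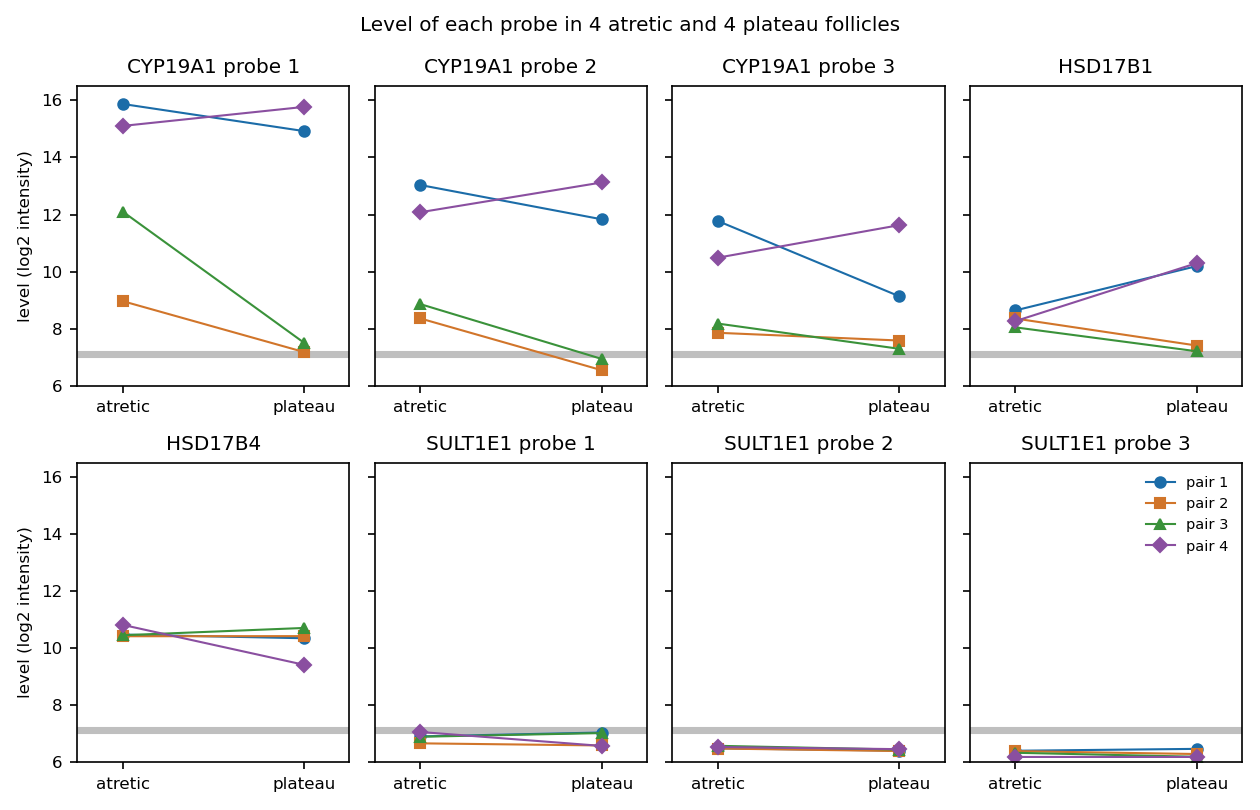
Level (log2 intensity) of each of the 8 probes in atretic and plateau follicles, with lines joining the follicles hybridised together as a pair and a grey band for the 95th percentile of negative controls (7.03 to 7.19). Aromatase probes EMBV3_07330 and EMBV3_36093 were high in both follicles of pairs 1 and 4, while EMBV3_08064 was at 9.14 in the plateau follicle of pair 1. HSD17B1 was spread widely only in plateau follicles, and all SULT1E1 readings lay within or under the band.

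CYP19A1 encodes aromatase, the enzyme that turns androstenedione and testosterone into oestrone and oestradiol. Its brightest probe, EMBV3_07330, had levels of 15.87, 8.97, 12.10 and 15.10 in atretic follicles of pairs 1 to 4, against 14.92, 7.18, 7.51 and 15.77 in plateau follicles. The 2 groups overlapped over almost their whole range. Both follicles of pairs 1 and 4 were high, both of pair 2 were low, and in pair 3 the atretic follicle was high and the plateau follicle near background. The reading of the plateau follicle of pair 2 was the only one of the 8 not above background.

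The pair differences of CYP19A1 were 0.95, 1.78, 4.60 and -0.67, with a mean log2 ratio of 1.67 ± 2.20 (SD, n = 4; 3.17-fold). Aromatase was thus higher in the atretic follicle in 3 of 4 pairs. The difference did not pass the threshold in limma (unadjusted p = 0.0975, adjusted p = 0.73), and its 95% interval ran from -0.43 to 3.76. An exact two-sided sign-flip test over the 4 pairs gave p = 0.25, where 0.125 is the smallest value that 4 pairs allow. Without pair 3, whose plateau follicle was rich in stroma transcripts, the mean log2 ratio was 0.69, and without pair 4 it was 2.44 and passed the threshold in limma (unadjusted p = 0.0306, adjusted p = 0.756). It also passed when the 8 arrays entered limma singly with a replicate block for each pair (unadjusted p = 0.0129, adjusted p = 0.23). That fit counts repeated arrays of the same RNA. With the 8 follicles entered in limma without pairs, the mean log2 ratio was the same at an unadjusted p of 0.504 (adjusted p = 0.9998).

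The other probes of CYP19A1 gave the same signs with smaller mean differences. Probe EMBV3_36093 had levels of 13.03, 8.36, 8.87 and 12.08 in atretic follicles and 11.83, 6.55, 6.95 and 13.12 in plateau follicles. Its pair differences were 1.20, 1.81, 1.92 and -1.04 (mean 0.97 ± 1.38; SD, n = 4; limma unadjusted p = 0.12). Only pair 4 was lower in the atretic follicle, as with the brightest probe, and the plateau follicles of pairs 2 and 3 were under background.

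Probe EMBV3_08064 had levels of 11.78, 7.86, 8.18 and 10.49 in atretic follicles and 9.14, 7.59, 7.30 and 11.63 in plateau follicles. Here the pair differences were 2.64, 0.27, 0.88 and -1.14 (mean 0.66 ± 1.56; SD, n = 4; limma unadjusted p = 0.312). The sign of each pair mean was shared by all 3 probes, but the pair with the largest difference was pair 1 for this probe and pair 3 for the others. In pair 2 the single arrays of EMBV3_08064 had opposite signs, at -0.14 with atretic RNA in Cy5 and 0.68 with atretic RNA in Cy3. Over the 8 follicles, levels of the 3 probes correlated at 0.90 to 0.98 (Pearson r, given as a description of probes that share arrays and scaling).

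By its brightest probe, aromatase was among the most variable transcripts of the series. The level of this probe spanned 8.69 on the log2 scale over the 8 follicles. Such a range was reached by 4 of 12943 genes (0.0309%) including CYP19A1 itself, against a median range of 1.07. The other 3 genes were CNN1 (9.16), XCL2 (9.06) and LOXL4 (8.85), named after their values were seen. The other CYP19A1 probes spanned less, from 6.55 to 13.12 for EMBV3_36093 and from 7.30 to 11.78 for EMBV3_08064, and were not ranked. The SD of the aromatase ratio over pairs, 2.20, was reached by 92 genes (0.711%). Its highest raw intensity, 63920, was just below the scanner's maximum of 65535, and 0 readings were at that maximum, so differences among the highest follicles were read close to the top of the scale.

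Both arrays of each pair gave the same sign for all pairs of CYP19A1 with the brightest probe. With atretic RNA in Cy5 the log2 ratios were 1.30, 1.55, 4.30 and -0.75, and with atretic RNA in Cy3 they were 0.60, 2.02, 4.89 and -0.58. The repeated arrays of a pair thus lay close together compared with the distance between the pairs. Slide and dye orientation cannot be told apart in this design.

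**Figure D2:**
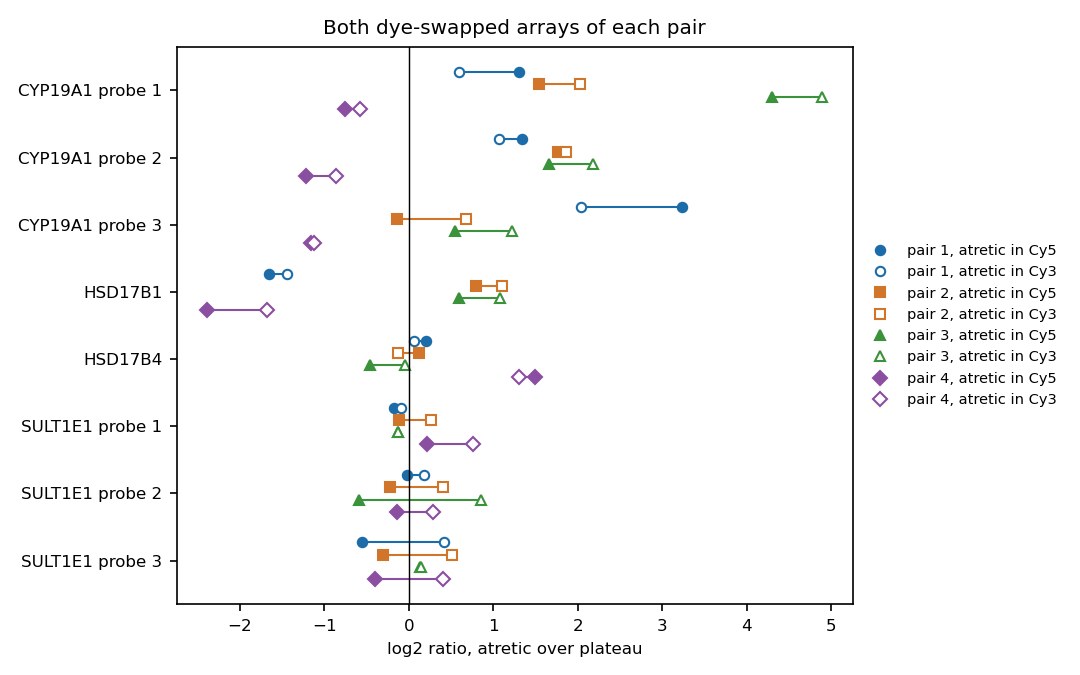
Log2 ratio of atretic over plateau on the 8 single arrays for each probe, with filled symbols for atretic RNA in Cy5, open symbols for atretic RNA in Cy3 and a line joining the repeated arrays of a pair. For the brightest CYP19A1 probe and for HSD17B1 both arrays of every pair had the same sign, while probe 2 of SULT1E1 (EMBV3_04352) took opposite signs with the dye in all 4 pairs.

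HSD17B1 encodes the enzyme that, in humans, reduces oestrone to oestradiol in granulosa cells. Its probe, EMBV3_00423, had levels of 8.64, 8.36, 8.05 and 8.27 in atretic follicles, against 10.19, 7.41, 7.21 and 10.30 in plateau follicles. The 4 atretic follicles lay close together, and the plateau follicles lay 2 above and 2 below all of them. All 8 readings were above background, those of the plateau follicles of pairs 2 and 3 only narrowly.

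The pair differences of HSD17B1 were -1.55, 0.95, 0.84 and -2.03, with a mean log2 ratio of -0.45 ± 1.56 (SD, n = 4). The gene was higher in the atretic follicle in 2 of 4 pairs and did not pass the threshold in limma (unadjusted p = 0.481, adjusted p = 0.911, 95% interval -1.95 to 1.05). The exact two-sided sign-flip test gave p = 0.625. Without pair 4 the mean log2 ratio was 0.077, without pair 1 it was -0.083, and without pair 3 it was -0.88. Both dye orientations gave the same sign in every pair.

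HSD17B1 spanned 3.08 on the log2 scale over the 8 follicles, a range reached by 5.3% of tested genes. Its spread differed between the groups more than its mean did. The SD of its level was 0.245 in atretic follicles and 1.70 in plateau follicles, a ratio of 6.92 of plateau over atretic. A ratio at least as high was found in 1.4% of tested genes, where the median was 1.18. This is given as a description, since no test of spread was run with 4 follicles a group.

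CYP19A1 and HSD17B1 were read side by side in the same follicles. In plateau follicles both were high together in pairs 1 and 4 (CYP19A1 14.92 and 15.77, HSD17B1 10.19 and 10.30) and low together in pairs 2 and 3 (CYP19A1 7.18 and 7.51, HSD17B1 7.41 and 7.21). In atretic follicles CYP19A1 went from 8.97 in pair 2 up to 15.87 in pair 1, while HSD17B1 went only from 8.05 to 8.64. Over all 8 follicles the levels correlated at 0.75 (Pearson r, a description of follicles that share arrays and scaling). No test of whether this relation differs between the groups was run.

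**Figure D3:**
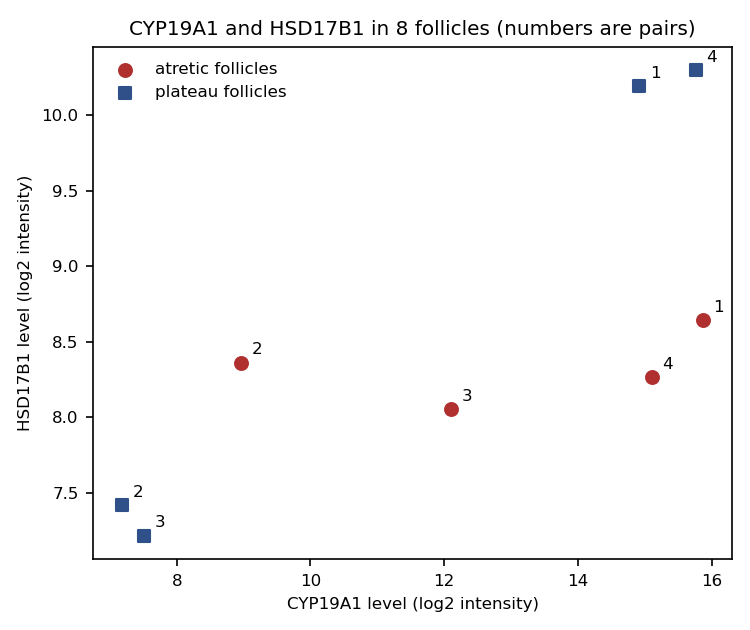
Level of HSD17B1 (log2 intensity) against level of CYP19A1 (log2 intensity, brightest probe) in the 4 atretic and 4 plateau follicles, with pair numbers beside the points. HSD17B1 stayed between 8.05 and 8.64 in atretic follicles at aromatase levels of 8.97 to 15.87, and took values of 7.21 to 10.30 in plateau follicles.

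HSD17B4 encodes a peroxisomal enzyme that oxidises oestradiol to oestrone and also serves in the breakdown of very long chain fatty acids. Its probe, EMBV3_21785, had levels of 10.47, 10.42, 10.45 and 10.82 in atretic follicles, against 10.35, 10.42, 10.71 and 9.42 in plateau follicles. The groups overlapped, and only the plateau follicle of pair 4 lay clearly away from the others. That follicle was also the one with the highest level of HSD17B1 and the second highest level of CYP19A1.

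The pair differences of HSD17B4 were 0.13, -0.0043, -0.26 and 1.40, with a mean log2 ratio of 0.32 ± 0.74 (SD, n = 4). It did not pass the threshold in limma (unadjusted p = 0.328, adjusted p = 0.864, 95% interval -0.43 to 1.06), and the exact sign-flip test gave p = 0.75. The mean rested on pair 4, without which it was -0.044, and without pair 3 it was 0.51. Its range over the 8 follicles, 1.40, was reached by 34.2% of tested genes. Levels of HSD17B4 correlated at -0.70 with HSD17B1 and at -0.34 with CYP19A1 over the 8 follicles (Pearson r, descriptions).

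SULT1E1 encodes oestrogen sulphotransferase, which adds a sulphate to oestradiol and oestrone. Its 3 probes all had a mean log2 intensity under 7 and were not tested. The brightest, EMBV3_38666, had levels of 6.91, 6.67, 6.90 and 7.07 in atretic follicles, against 7.05, 6.59, 7.03 and 6.58 in plateau follicles. Only the reading of 7.07, in the atretic follicle of pair 4, was above background, where the negative controls of that follicle reached 7.03.

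The mean log2 ratio of this probe was 0.07 ± 0.29 (SD, n = 4), with pair differences of -0.14, 0.07, -0.13 and 0.49. Probe EMBV3_04352 was at or below 6.58 in all follicles, and probe EMBV3_34709 at or below 6.47, so 0 of 8 readings were above background for either. The levels of EMBV3_04352 did not overlap between the groups (at least 6.49 in atretic and at most 6.46 in plateau follicles), as was the case for 2.77% of tested genes. Its mean log2 ratio of 0.09 ± 0.03 came from single arrays of opposite sign, at -0.59 to -0.02 with atretic RNA in Cy5 and 0.18 to 0.85 with atretic RNA in Cy3. Levels of the 3 probes correlated at -0.13 to 0.27 with each other, unlike those of CYP19A1. Expression of SULT1E1 was not detectable by these probes in either group, which sets no order between the groups.

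The genes that feed the pathway were described from lists chosen with earlier results known. Androgens reach granulosa cells from theca cells, so transcripts of the androgen supply list, read here in granulosa cells, do not measure that supply. Of 9 genes of androgen supply, 7 had a probe and were tested, 1 was higher and 1 lower in atretic follicles, beside 2.84% and 2.91% of all tested genes. The median log2 ratio was -0.01, against 0.0017 over all genes. CYP11A1, which cleaves the side chain of cholesterol to make pregnenolone, had levels of 15.27, 11.22, 11.57 and 13.06 in atretic follicles and 14.91, 12.15, 13.37 and 15.11 in plateau follicles. It fell by 1.11 ± 1.09 (SD, n = 4; limma unadjusted p = 0.043, adjusted p = 0.644) and was lower in 3 of 4 pairs. Without pair 2, 3 or 4 this call was lost, at -1.16, -0.88 and -0.79. It was also lost when the follicles were fitted in limma without pairs (unadjusted p = 0.294).

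CYB5A, the cytochrome b5 that promotes androgen formation by CYP17A1, had levels of 14.39, 14.81, 15.36 and 14.68 in atretic follicles and 13.23, 14.52, 12.59 and 13.62 in plateau follicles. It rose by 1.32 ± 1.04 (SD, n = 4; limma unadjusted p = 0.0198, adjusted p = 0.545) and was higher in 4 of 4 pairs, with 1 overlap between the groups. All 4 pairs had 1 sign in 16.9% of tested genes. Its other probes, EMBV3_30834 and EMBV3_25272, gave 0.22 and 0.42 and did not pass the threshold, and the call was lost without pair 1 (1.37). Without pair 3 the ratio was 0.84, still past the threshold. The other genes of the list named here, by their bright probes, were FDX1, an electron donor to CYP11A1 (0.03 ± 0.54), STAR, which brings cholesterol into mitochondria (-1.45 ± 3.44), and HSD3B1, which makes progesterone and androstenedione (0.00 ± 0.97; SD, n = 4 each). STAR had levels of 10.23 to 14.18 in atretic follicles and 11.05 to 15.76 in plateau follicles, the last in pair 3, without which its log2 ratio was -0.19.

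Of 9 further 17-beta-hydroxysteroid dehydrogenases, all were tested, 1 was higher and 0 were lower in atretic follicles, beside 2.84% and 2.91% of all tested genes, with a median log2 ratio of -0.07. Without pair 3 the count was 0 in both directions. The one that rose, HSD17B11, oxidises steroids at the 17 position and sits on lipid droplets. Its levels were 12.08, 13.01, 13.17 and 11.83 in atretic follicles and 10.69, 13.32, 11.33 and 10.47 in plateau follicles. It was higher in 3 of 4 pairs, with a mean log2 ratio of 1.07 ± 0.95 (SD, n = 4; limma unadjusted p = 0.0312, adjusted p = 0.604). The call was lost without pair 1 (0.96), pair 3 (0.81) or pair 4 (0.97). It was also lost when the follicles were fitted in limma without pairs (unadjusted p = 0.126). A second probe, EMBV3_20462, was too dim to be tested.

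Others of this family with bright probes did not pass the threshold. They were HSD17B10, a mitochondrial enzyme (-0.10 ± 0.63), HSD17B7, which works in cholesterol synthesis and in rodents reduces oestrone (0.61 ± 0.79), and HSD17B8 (0.47 ± 0.47; SD, n = 4 each). Without pair 3 these values were 0.19, 0.34 and 0.25 for HSD17B10, HSD17B7 and HSD17B8. HSD17B2, known for oxidising oestradiol, was above background in 4 of 8 follicles.

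No gene of conjugation and catabolism passed the threshold. Of 18 listed, 17 had a probe and 15 were tested, and the median log2 ratio was -0.03. Of the tested genes 0 were higher and 0 lower in atretic follicles, beside 2.84% and 2.91% of all tested genes. With 15 genes a count of 0 lies near these shares. Above background in all follicles were 6 genes, and SULT1B1 and UGT1A1 were below it in all. PAPSS1 and PAPSS2 make the sulphate donor used by SULT1E1, and their log2 ratios were -0.42 ± 0.74 and -0.49 ± 0.29 (SD, n = 4 each). PAPSS2 was lower in 4 of 4 pairs, at an unadjusted p of 0.0202 in limma (0.0589 without pair 3), but under the fold. All 4 pairs shared a sign in 16.9% of tested genes. The efflux pump ABCG2 (-0.11 ± 0.94) and the uptake carrier SLCO2B1 (0.41 ± 0.85) carry steroid sulphates, and neither passed the threshold. Without pair 3 their values were 0.36 and 0.19.

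The oestradiol receptors were dim. ESR1 was below background in all 8 follicles and was not tested. ESR2, the main oestrogen receptor of granulosa cells, had levels of 6.91 to 7.61 in atretic follicles and 7.43 to 7.68 in plateau follicles, with a mean log2 ratio of -0.24 ± 0.22 (SD, n = 4; limma unadjusted p = 0.118), and was above background in 7 of 8. Without pair 3 this ratio was -0.15.

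Among 14 regulators of aromatase and products of the same cells, 13 had a probe and 12 were tested, with a median log2 ratio of 0.30 (0.11 without pair 3). Of these genes 0 passed the threshold, beside 5.75% of all tested genes. Those with the brightest probes were INHBA, the activin and inhibin beta A subunit (0.97 ± 1.37), INHA (1.58 ± 2.15) and the transcription factor GATA4 (-0.02 ± 0.83; SD, n = 4 each). INHA levels were 15.97, 15.91, 15.97 and 15.75 in atretic follicles, against 15.85, 13.97, 11.50 and 15.97 in plateau follicles. For INHA and for INHBA, 4 of 8 atretic and 3 of 8 plateau readings were at the scanner's maximum of 65535, so the highest levels and the ratios drawn from them give only bounds. Without pair 3 the ratios were 0.34 for INHBA and 0.62 for INHA. Like aromatase, INHA was lower in the plateau follicles of pairs 2 and 3. It stayed near the top of the scale in the atretic follicle of pair 2, where aromatase was low. Of the tested genes of this list without readings at the maximum, INHBB (9.99), NR5A2 (12.2) and LHCGR (7.62) had their lowest atretic level in that follicle. GATA4 had its highest there (15.05), and the others lay in between.

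**Figure D4:**
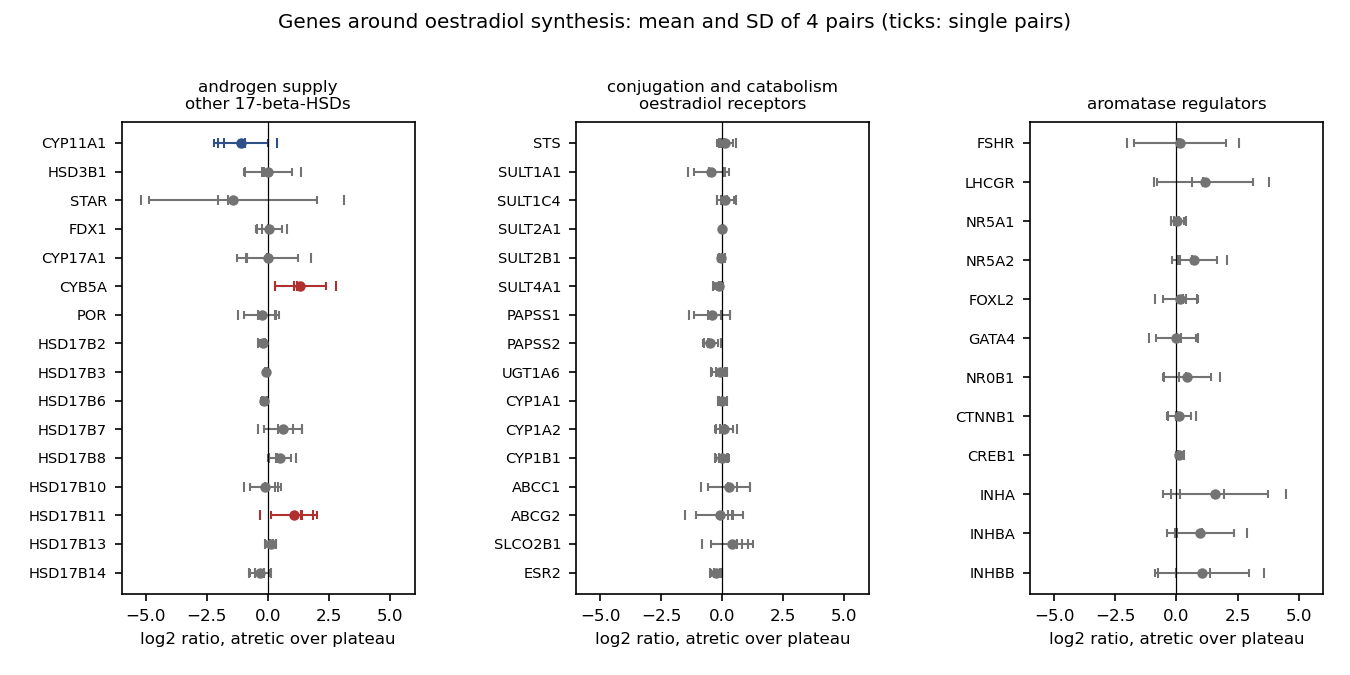
Log2 ratio of atretic over plateau for each tested gene of the listed pathway groups, with points for the mean, bars for the SD and ticks for the 4 pairs. CYB5A and HSD17B11 (red) were higher and CYP11A1 (blue) lower in atretic follicles at the study's threshold, and the other genes (grey) did not pass it.

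The genes whose level followed aromatase most closely over the 8 follicles were sought among 7097 genes whose log2 intensity averaged at least 8. They were USHBP1 (Pearson r = 0.990), SEMA6D (0.985), SLC39A14 (0.983), NINJ1 (0.977) and FST (0.977). FST, follistatin, had levels of 15.03, 11.09, 13.40 and 14.20 in atretic follicles, against 14.92, 9.84, 8.81 and 14.89 in plateau follicles. In all, 126 genes (1.78%) reached a correlation of 0.9 or more with CYP19A1. These are descriptions over follicles that share arrays and scaling.

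For HSD17B1, 22 genes (0.31%) reached 0.9, led by MFSD3 (0.966), NPR3 (0.960) and POR (0.958), named after their values were seen. POR, the electron donor of aromatase and of CYP17A1, had levels of 8.83, 8.15, 7.85 and 8.32 in atretic follicles and 9.23, 7.87, 7.54 and 9.55 in plateau follicles. Its plateau follicles of pairs 1 and 4 were the highest of the 8, as with HSD17B1. For SULT1E1 the closest were HTATIP2 (0.965), CHCHD3 (0.957), DPCD (0.957), VAMP5 (0.946) and GPX8 (0.941), although the levels of SULT1E1 itself were at background. In all, 12 genes (0.169%) reached 0.9 with SULT1E1, so correlations of this size were also found for a probe at background.

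Markers of other cell types were set beside aromatase in the same follicles, because fewer granulosa cells and less RNA per granulosa cell cannot be told apart in bulk samples. The mean level of the 10 granulosa markers was 12.20, 11.73, 11.91 and 12.10 in atretic follicles, against 12.27, 11.06, 9.94 and 12.30 in plateau follicles. It was lowest in the plateau follicles of pairs 2 and 3, where aromatase was near background. The atretic follicle of pair 2 had an aromatase level of 8.97 beside a granulosa marker mean of 11.73. In the atretic follicle of pair 1 these were 15.87 and 12.20. Single markers differed more than these means. Lower in pair 2 than in pair 1 were INHBB (9.99 against 13.67), AMH (9.57 against 12.34), NR5A2 (12.2 against 13.9), FOXL2 (8.02 against 8.58) and KITLG (8.60 against 8.86). Higher were GATM (11.52 against 7.13) and FSHR (9.69 against 9.62). INHA, INHBA and SERPINE2 each had 4 of 8 atretic and 3 of 8 plateau readings at the scanner's maximum, which limits what the means show.

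The 8 stroma markers averaged 9.17, 8.80, 8.52 and 8.75 in atretic follicles, against 7.91, 9.19, 13.49 and 8.80 in plateau follicles. Only the plateau follicle of pair 3 was far from the rest, with a COL1A2 level of 15.83. The myeloid markers averaged 7.54, 8.18, 8.44 and 7.27 in atretic follicles, against 6.94, 9.46, 9.70 and 7.39 in plateau follicles. They were highest in both follicles of pairs 2 and 3, which were the 4 lowest in aromatase. Within this list CSF1R was below background in all 8 follicles, and CD68, TYROBP and CTSS reached 10.32 to 11.56 in the plateau follicles of pairs 2 and 3, apart from CD68 at 9.79 in pair 3.

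The 6 smooth muscle markers averaged 8.69 to 9.71 in atretic follicles and 8.01 to 10.57 in plateau follicles. Single members went opposite ways in the plateau follicle of pair 3. ACTA2 (15.59), CNN1 (15.28), TAGLN (8.13) and DES (8.13) had their highest level there. MYH11 (6.97) had its lowest, under background, and MYLK (9.29) lay in between. Theca markers averaged 8.42 to 8.94 in atretic and 8.07 to 8.77 in plateau follicles. Endothelium markers averaged 7.03 to 7.78 in atretic and 7.10 to 7.77 in plateau follicles, and PECAM1 was below background in all 8. CYP17A1, the androgen-forming enzyme of theca cells, was highest in the atretic follicle of pair 1 (9.41), which also had the highest aromatase. The other theca markers did not all follow. INSL3 was also highest there (8.51), but NR2F2 (8.44) and PTCH1 (11.55) reached 8.78 and 12.16 in other follicles. GLI1 (6.71) and HHIP (6.81) had their lowest level in that follicle, under background. Of the tested markers of all 6 lists, 0 passed the threshold between the groups, beside 5.75% of all tested genes. Without pair 3 only PDGFRA passed it (0.80). The part of these markers in the differences of CYP19A1 and HSD17B1 was not tested.

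**Figure D5:**
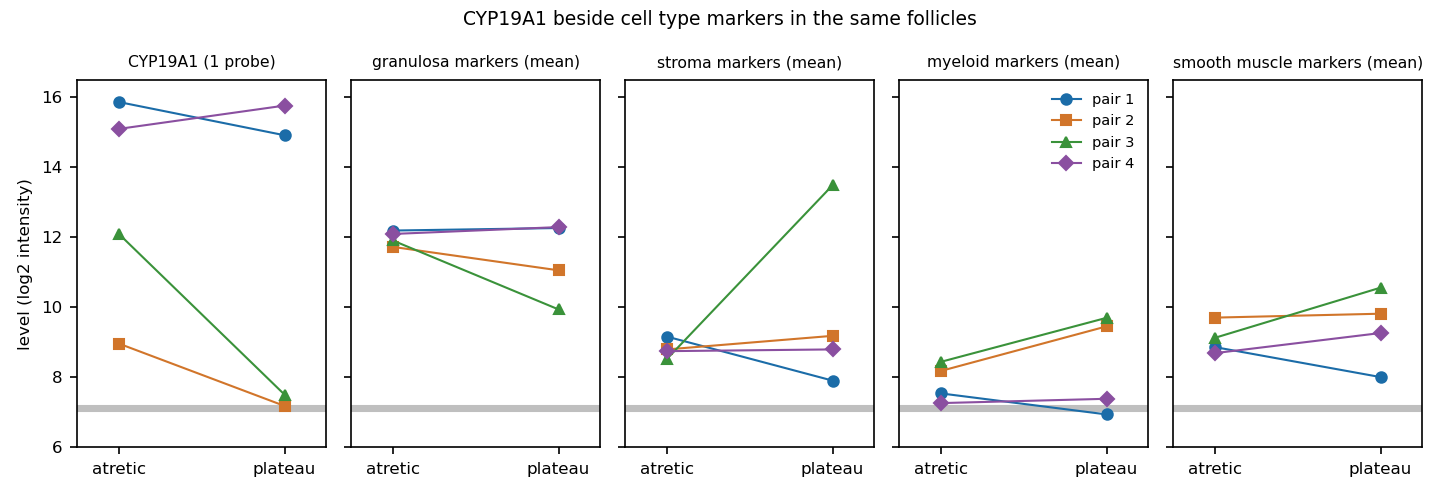
Level of CYP19A1 and mean level of granulosa, stroma, myeloid and smooth muscle markers (log2 intensity) in the same atretic and plateau follicles, with lines joining pairs and a grey band for the 95th percentile of negative controls. The plateau follicle of pair 3 had a stroma mean of 13.49 and a granulosa mean of 9.94, and myeloid markers were highest in pairs 2 and 3.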

How the data were processed

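For each spot and dye the authors deposited the median intensity with the local background, a mark for spots excluded in image analysis (7 to 35 per array), and a table of log2 ratios made by background subtraction, loess and quantile normalization. That table served as an alternative. Per the labels, slide 205 had atretic RNA in Cy5 and slide 206 in Cy3. Each deposited column correlated with Cy5 over Cy3 recomputed here (0.999689 to 0.999926), on a log2 scale with medians of -0.0289 to -0.00543, which settled direction, scale and centring. The genome build is not given in the sources used here.

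Intensities were corrected with normexp (offset 50), then normalized by loess (span 0.3; control and marked spots at weight 0) and by quantiles between arrays, and tested with lmFit and eBayes in limma 3.58.1 (R 4.3.3, statmod 1.5.0) with Benjamini-Hochberg adjustment over all tested probes. Median spot intensities per array were 162 to 283 in Cy5 and 205 to 374 in Cy3. The number of arrays limits the precision. Symbols came from the platform annotation, updated for 1524 probes through gene records, and 21790 of 43794 gene probes had a symbol (15216 symbols).

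The labels do not state that equal Area numbers hold the same follicles. After each slide's mean was removed, log ratios of equal numbers correlated at 0.761 to 0.866 and those of unequal numbers at -0.488 to -0.0326, so each dye swap was averaged to 1 replicate. Steps were tested on simulated data. Alternatives changed background correction, normalization, filters, marked spots, dye swaps, slide, source, variance model, probe choice, pairing, threshold and each pair left out.

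Named genes were all members, every gene of the pathway lists past the threshold with up to 3 brightest others per list, and the 5 genes nearest in profile to CYP19A1 and to SULT1E1. Markers and the other genes named were added for the description. The members and lists were chosen with earlier results of these data known. No sequences are shown.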

Additional observations from a re-analysis of the deposited data

Results flagged for a closer look

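The probes examined were the 8 of the enzymes and the brightest of CYP11A1, CYB5A and HSD17B11, chosen because they passed the threshold in these data. For each probe, the 4 pair ratios, the 4 atretic levels and the 4 plateau levels were examined for a value far from the others. Of these 33 sets, 1 was singled out. Chance would do so for about 1 in 20 separate sets, but these sets are not separate, because the ratios come from the same levels. The level of HSD17B4 in the atretic follicle of pair 4 was 10.82, above the 10.42 to 10.47 of the other 3 atretic follicles. The gap was larger than Dixon's limit for 4 samples, but it is small beside the plateau follicle of the same pair, which had a level of 9.42.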

How the results depend on the processing

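CYP19A1 kept its positive direction under all alternatives, at 1.10 to 1.73 under those that kept all pairs and 0.69 to 2.44 with a pair left out. In limma it passed the study's threshold when single arrays were fitted with a replicate block for the pair (1.67, unadjusted p = 0.0129, adjusted p = 0.23), with the replicate block and a dye term (1.67, unadjusted p = 0.0167, adjusted p = 0.281), with the arrays taken as independent (1.67, unadjusted p = 0.0164, adjusted p = 0.181) and without pair 4. In each of these 4 settings the count of enzymes past the threshold was 1, against 0 otherwise, so the range with a pair left out was 0 to 1. With the 8 follicles fitted in limma without pairs, CYP19A1 stayed at 1.67 but had an unadjusted p of 0.504. The replicate block changed no call of HSD17B1, HSD17B4, CYP11A1, CYB5A or HSD17B11. Repeated arrays share their RNA, and the spread between them is smaller than that between follicles. HSD17B1 ranged from -0.66 to -0.24 with all pairs and from -0.92 to 0.077 with 1 left out, and HSD17B4 from 0.29 to 0.34 and from -0.044 to 0.51. Both turned sign without pair 4 (0.077 and -0.044). SULT1E1, at background, ranged from -0.06 to 0.14 with a pair left out and was -0.05 on slide 205 alone and 0.20 on slide 206 alone. It was not fitted with the block, and HSD17B12 gave no value.

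The count of probes past the threshold, 1393, became 2211 with the replicate block, 2197 with the block and dye term, 2221 with independent arrays, 2712 on slide 205 alone and 2663 on slide 206 alone. It became 771 with trend and robust variance, 851 without pairs and 0 at an adjusted p of 0.05, and lay between 1287 and 1811 with a pair left out. Among the other named pathway genes, ABCG2 and HSD17B10 turned sign without pair 3 (0.36 and 0.19), a setting added for them after the data were seen. The rises of CYB5A and HSD17B11 and the fall of CYP11A1 missed the threshold under 3, 6 and 8 alternatives. With the follicles fitted in limma without pairs, CYB5A still passed (unadjusted p = 0.00979), while HSD17B11 (0.126) and CYP11A1 (0.294) did not. Readings near background, as for SULT1E1, and near the scanner's maximum, as for CYP19A1, limit what the intensities show.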
